A study of Mus musculus with 186 samples.

Results

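The cells described here are the 14 E4.0 inner cells of the series that have a column in the deposited table, of 18 labelled E4.0 and 170 columns in all. They were divided into 7 endoderm-leaning and 7 epiblast-leaning cells by a value computed from 9 genes. For each cell, the mean log2(TPM + 1) of Gata4, Sox17, Sox7, Foxa2 and Pdgfra was taken, the mean of Nanog, Sox2, Fgf4 and Klf2 was subtracted, and the result was centred on its median over the 14 cells. Cells above 0 were called endoderm-leaning and cells below 0 epiblast-leaning. Because the groups were defined from measured values of these cells, every difference between them is a description, with no test, and the 9 genes are not counted among the results. TPM is transcript abundance scaled to a fixed total per cell. All differences below are endoderm-leaning minus epiblast-leaning on the log2(TPM + 1) scale.

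The study sequenced RNA of single inner cells of CD-1 mouse embryos from timed natural matings, isolated by immunosurgery, which destroys the outer cells. The E4.0 embryos were collected fresh with no treatment. So were the E3.75 (22 cells) and E3.25 (20 cells) embryos. Other embryos were taken at E2.75 and cultured in KSOM medium for 16 or 24 hours with 10 µM LY294002 (LY), a phosphoinositide 3-kinase inhibitor, or with the vehicle DMSO. These gave 31 LY and 31 DMSO cells at 16 hours, and 24 LY and 28 DMSO cells at 24 hours. An experiment is the set of cells of a group that share a collection date. The E4.0 cells came from 2 experiments. Experiment 1 held 9 cells, of which 5 were endoderm-leaning, and experiment 2 held 5 cells, of which 2 were endoderm-leaning. Several litters went into each experiment, so a cell cannot be assigned to an embryo.

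In the mouse blastocyst the inner cells separate into epiblast, the source of the embryo itself, and primitive endoderm, an epithelium that later lines the yolk sac. FGF4 from epiblast precursors acts through FGF receptors and ERK signalling on neighbouring cells and promotes the endoderm fate, while NANOG and SOX2 maintain the epiblast programme. GATA6, SOX17, GATA4 and SOX7 are switched on in turn in the endoderm lineage, whose cells produce large amounts of laminin and type IV collagen for a basement membrane and take up maternal proteins by endocytosis.

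Several properties of the libraries bear on every value that follows. In experiment 1 all 4 epiblast-leaning cells (5, 6, 7 and 8) carried a title part that no endoderm-leaning cell of that experiment had. The labels do not say what that part denotes, so within experiment 1 it and the grouping cannot be told apart. In experiment 2 both title parts held cells of both groups. Each sequencing run held equal numbers of the groups, 4 and 4 in run 1 and 3 and 3 in run 2. Across the series, 4 pairs of libraries were nearly the same, with Pearson correlations over 8950 genes between 0.954 and 0.975, against a next highest value of 0.868 and a median of 0.61 over 14365 pairs. Pairs without an E4.0 cell joined LY 24h experiments 1 and 2 (0.973) and DMSO 24h experiments 1 and 2 (0.956). Epiblast-leaning cells 15 and 16 formed 1 such pair (0.975), and epiblast-leaning cell 6 and a cell labelled DMSO 16h formed another (0.954). Results are therefore also given over 12 cells, with cells 15 and 16 averaged as 1, cell 6 left out and the groups kept as they were, which leaves 5 epiblast-leaning cells. The library nearest to cell 7 came from LY 16h (0.758), while the other 10 cells outside such pairs had an E4.0 cell as nearest.

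Genes detected at a TPM of 1 or more numbered 5739 to 9132 (median 7005) in the endoderm-leaning cells and 6583 to 8254 (median 7521) in the epiblast-leaning cells. Mitochondrially encoded genes took 1.20% to 32.5% (median 20.3%) of TPM in the former and 2.84% to 31.7% (median 9.61%) in the latter. The ranges overlapped for both measures, and the part of either in the differences below was not tested. A gene was kept when at least 4 of the 14 cells had a TPM of 1 or more, which left 9686 genes. A gene detected in 1 group alone passed only through that group, so the direction of its difference was fixed by the filter. Over these genes the median difference was -0.18, with -0.07 in experiment 1 and -0.31 in experiment 2, and -0.02 after quantile normalization. The difference had the same sign in both experiments for 54.02% of genes.

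The 9-gene value ran from -2.99 in cell 7 to 3.64 in cell 1 after centring, around a median of -2.11 before centring. The cells just inside each side of the threshold were epiblast-leaning cell 13 at -0.65 and endoderm-leaning cell 11 at 0.65. By value, the epiblast-leaning cells were ordered 7, 8, 5, 15, 6, 16 and 13, and the endoderm-leaning cells 11, 17, 2, 12, 3, 14 and 1. The part of the value from the 5 endoderm genes was 2.96 to 4.30 (median 4.02) in the endoderm-leaning cells and 0 to 3.89 (median 1.93) in the epiblast-leaning cells. The part from the 4 epiblast genes was 2.50 to 5.02 (median 4.14) against 3.54 to 7.00 (median 5.25). Both parts overlapped between the groups. Cells 15 and 16 lay in the endoderm-leaning range of the endoderm part, and cells 6 and 13 in that of the epiblast part. When the cells were divided by the endoderm genes alone, 12 of the 14 kept their group, and by the epiblast genes alone 10 did.

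**Figure D1:**
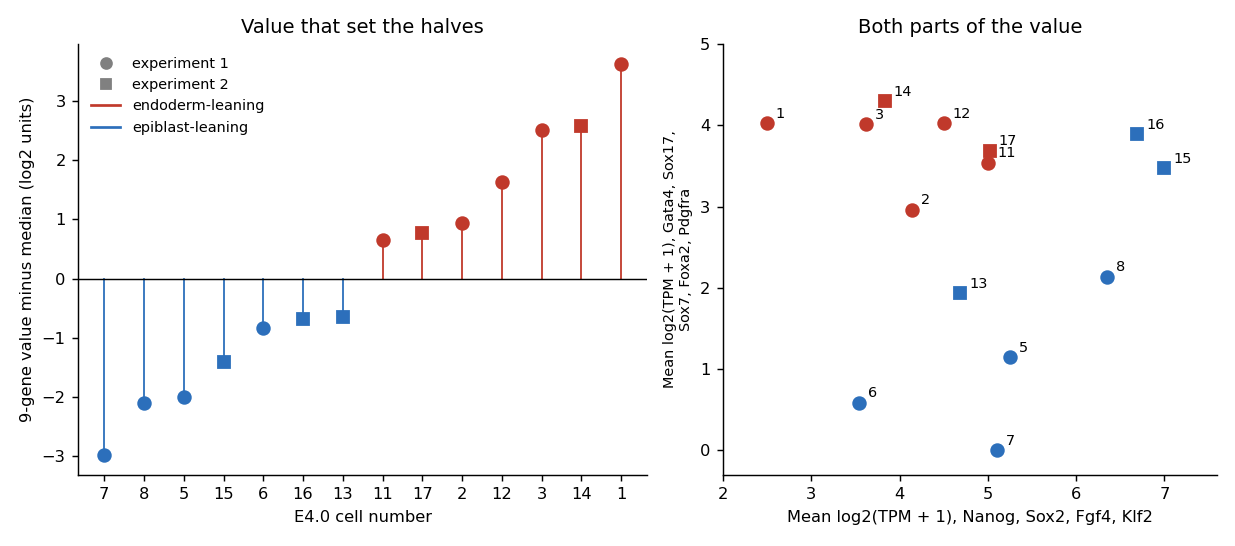
Left, the 9-gene value minus its median (log2 units) for each of the 14 E4.0 cells, ordered by value. Right, the mean log2(TPM + 1) of the 5 endoderm genes against that of the 4 epiblast genes. Points are cells, marker shape is the experiment and colour the group. The values run from -2.99 to 3.64 and no cell lies between -0.65 and 0.65, while neither axis on the right separates the groups by itself.

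The 4 lineage markers named for the groups were present in most cells of both. Gata4, an endoderm transcription factor, was at 38.6 to 127 TPM (median 47.9) in the endoderm-leaning cells and at 0 to 55.2 TPM (median 2.61) in the epiblast-leaning cells. Sox17, another endoderm factor, was at 0.46 to 47.04 TPM (median 19.8) against 0 to 25.4 TPM (median 2.95). Nanog was at 1.89 to 88.3 TPM (median 40.2) in the endoderm-leaning cells and at 44.8 to 611 TPM (median 114) in the epiblast-leaning cells, and Sox2 at 6.24 to 17.8 TPM against 9.81 to 52.9 TPM. Markers of both lineages were thus found together in most cells. Of 31 further primitive endoderm markers, the endoderm-leaning cells had 20 to 25 at a TPM of 1 or more (median 23) and the epiblast-leaning cells 9 to 23 (median 19). The lowest 2 counts were those of cell 6 (9 markers) and cell 7 (12 markers). Of 27 further epiblast markers, the endoderm-leaning cells had 18 to 25 and the epiblast-leaning cells 18 to 26, with a median of 24 in both. The label of epiblast-leaning therefore rests on the 9 genes and was not matched by a higher number of epiblast markers.

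The largest positive difference was that of Htra1, followed by Amn, Oat and Srgn. Htra1 encodes a secreted serine protease and lies on chromosome 7 at 130936111 to 130985660 (mm10). It was at 89.2 to 393 TPM (median 187) in the endoderm-leaning cells and at 0 to 51.8 TPM (median 8.77) in the epiblast-leaning cells, so the groups did not overlap. Its mean log2(TPM + 1) was 7.62 ± 0.76 (SD, n = 7 cells) against 2.62 ± 2.29, a difference of 5.01, with 5.32 in experiment 1, 4.27 in experiment 2 and 4.66 over 12 cells. Srgn, which encodes the proteoglycan serglycin, was at 72.9 to 559 TPM (median 255) against 0 to 61.0 TPM (median 14.4). Its difference was 4.35, with 5.62 and 2.41 in the 2 experiments. In both genes cells 6 and 7 were at 0, and the other 5 epiblast-leaning cells had 1.01 to 51.8 TPM of Htra1 and 3.61 to 61.0 TPM of Srgn.

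Amn encodes amnionless, which with cubilin forms an endocytic receptor of the visceral endoderm, and lies on chromosome 12 at 111271095 to 111276426. It was at 111 to 707 TPM (median 178) in the endoderm-leaning cells and at 0 to 123 TPM (median 26.1) in the epiblast-leaning cells, where cell 5 alone reached the endoderm-leaning range. The difference was 4.48, with 5.30 in experiment 1 and 2.87 in experiment 2. Oat, the mitochondrial ornithine aminotransferase, was at 0.88 to 143.5 TPM (median 31.02) against 0 to 5.88 TPM, with 1 of 7 epiblast-leaning cells at 1 TPM or more. Its difference was 4.41, with 4.69 and 4.09 in the experiments. Donson, a component of the DNA replication machinery, was at 11.4 to 74.7 TPM (median 30.4) against 0 to 10.5 TPM (median 0.90), with no overlap and a difference of 3.83. Lama1, the laminin α1 chain of the embryonic basement membrane, was at 37.5 to 405 TPM (median 176) against 0 to 107 TPM (median 20.6). Its difference of 3.31 was carried by experiment 1 (5.08), with 0.50 in experiment 2, where cells 15 and 16 had 71.6 and 107 TPM.

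The 15 genes of largest positive difference ran from 3.31 to 5.01 and included Nostrin (3.52), a regulator of nitric oxide synthase trafficking, Bend5 (3.52) and the aldo-keto reductase gene Akr1c13 (3.42). Srrd, Fcor, Glt8d1 and Ss18l2 differed by 3.86, 4.16, 3.56 and 3.47. All 15 kept a positive difference over the 12 cells, where Cox6c2 had the lowest value (2.47) and Htra1 the highest (4.66). Mir7079 (3.51) was detected in 4 endoderm-leaning and 0 epiblast-leaning cells and passed the filter only through the former. Reads of the small RNA gene Mir7079 and of its host gene Rpl13 cannot be told apart, nor can those of the pseudogene Cox6c2 (3.35) and its parent, of Akr1c13 and its close paralogues, or of overlapping pairs such as Donson and Son.

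No endoderm-leaning cell overlapped any epiblast-leaning cell for 8 genes that were higher, which is 0.0826% of the 9686 genes, and for 12 genes that were lower, which is 0.124%. Since the groups were chosen on these cells, nothing is read from these shares. The 8 were Htra1, Srgn, Donson, Mmachc, Flrt3, Usp47 and the predicted genes Gm10131 and Gm14138. Gm14138 reached 1 TPM in no epiblast-leaning cell and passed the filter only through the endoderm-leaning cells, which fixed its direction. Flrt3, a transmembrane adhesion protein that binds FGF receptors, was at 5.78 to 28.9 TPM against 0 to 3.47 TPM. Mmachc, a cobalamin-processing enzyme, was at 1.81 to 32.5 TPM against 0 to 1.70 TPM. Over the 12 cells the counts were 16 and 19. Genes in these lists that are not among the 15 in each direction are named here after their values were seen.

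**Figure D2:**
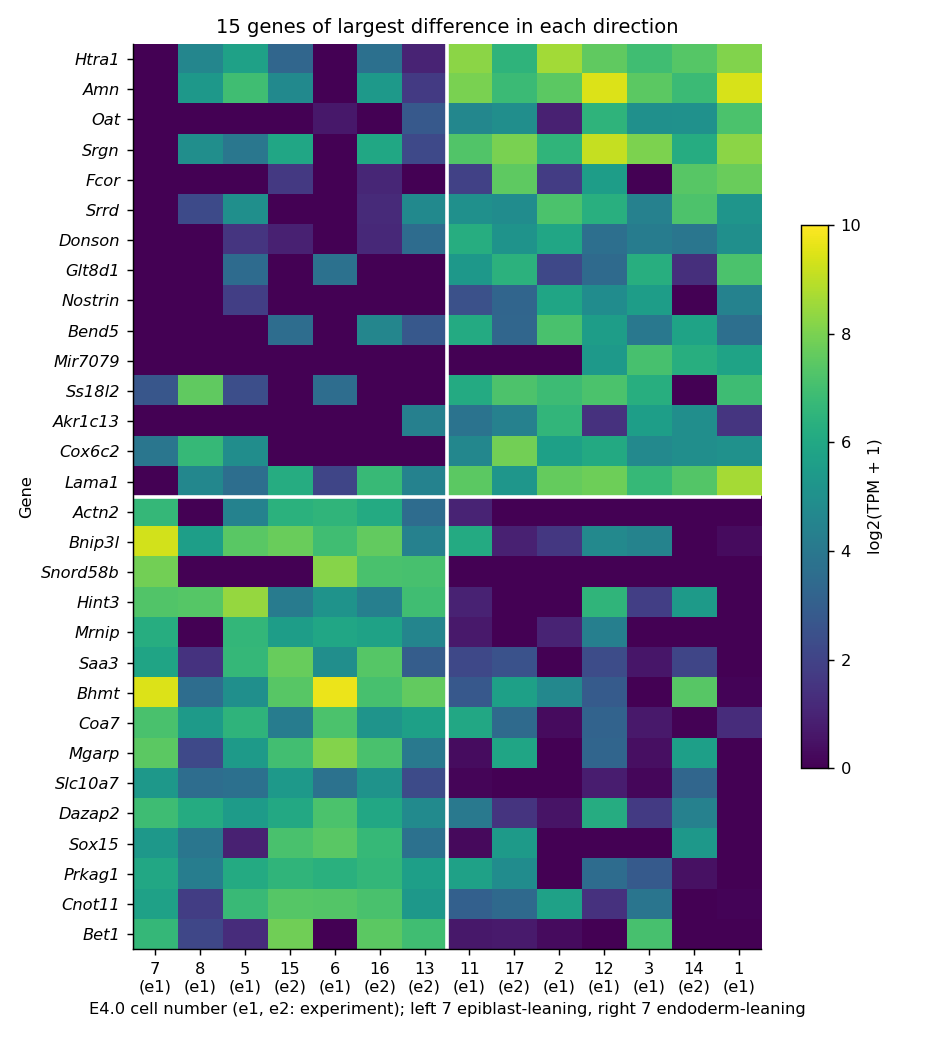
Heat map of log2(TPM + 1) for the 15 genes of largest difference in each direction (rows) in the 14 E4.0 cells (columns, ordered by the 9-gene value, with the experiment under each cell number). Htra1, Srgn and Amn are at 0 in cells 6 and 7 and high in every endoderm-leaning cell, and Actn2 is at 0 in all but 1 of the endoderm-leaning cells.

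Primitive endoderm markers outside the 9 genes were mostly higher in the endoderm-leaning cells. Of 31 markers, 25 passed the filter, and 24 of these were higher and 1 lower, with a median difference of 2.07 against -0.18 over all genes. The 6 that did not pass were Lrp2, Ttr, Fst, Thbd, Plat and Habp2, and over all 31 the median was 1.06. The list median was 2.91 in experiment 1 and 0.34 in experiment 2, and 1.63 over the 12 cells. Mean log2(TPM + 1) over the list was 3.52 to 4.72 in the endoderm-leaning cells and 1.33 to 4.00 in the epiblast-leaning cells, where cells 15 and 16 (3.63 and 4.00) lay within the endoderm-leaning range and cells 6 and 7 (1.33 and 1.81) were lowest. The list was compiled with results of these cells known.

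Among its members, Aqp8, a water channel, was at 60.2 to 229.7 TPM (median 183) in the endoderm-leaning cells and at 0 to 165 TPM (median 42.9) in the epiblast-leaning cells. Its difference was 2.88, with 4.47 in experiment 1 and 0.57 in experiment 2. Dab2, the endocytic adaptor needed for visceral endoderm function, was at 0.07 to 119.8 TPM (median 41.4) against 0 to 50.3 TPM (median 2.12), a difference of 2.899 (3.995 in experiment 1 and 0.32 in experiment 2). Pth1r, the receptor for parathyroid hormone-related protein in parietal endoderm, differed by 2.32 with the same sign in both experiments (3.02 and 1.18), and F3, tissue factor, by 1.46. F3 reached 1 TPM in 4 endoderm-leaning and 0 epiblast-leaning cells and passed the filter only through the former. Cubn, the partner of Amn, differed by 1.17 (1.77 and 0.04), and Hnf4a, a nuclear receptor of visceral endoderm, by 1.06. Cited1, a transcriptional coregulator, was the 1 lower member (-1.04) and was at -0.0016 over the 12 cells.

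Gata6, the earliest of the endoderm factors, did not follow the grouping. It was at 0.24 to 40.3 TPM (median 11.4) in the endoderm-leaning cells and at 0.33 to 41.6 TPM (median 16.0) in the epiblast-leaning cells, a difference of 0.08. The highest single value belonged to cell 7, which had the lowest 9-gene value and no detected Gata4, Sox17, Sox7, Foxa2 or Pdgfra.

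Basement membrane genes were higher with the endoderm markers, with which the list shares 9 of its 24 members. Of 22 that passed the filter, 20 were higher and 2 lower, with a median of 1.10, or 1.66 in experiment 1, 0.16 in experiment 2 and 1.17 over the 12 cells. Lamb1, the laminin β1 chain, was at 81.6 to 266 TPM (median 122) against 2.01 to 89.7 TPM (median 33.1), a difference of 2.61, and its partner Lamc1 differed by 2.30. Col4a1, a type IV collagen chain, was at 32.9 to 435 TPM (median 128) against 4.28 to 145 TPM (median 13.3), and differed by 2.36, while Col4a2 differed by 2.50. In experiment 2 Col4a1 was at -0.10 and Col4a2 at 1.00.

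Genes that process or bind collagen were among these. Serpinh1, the collagen chaperone, was at 43.7 to 276 TPM (median 129) against 0 to 222 TPM (median 36.9), with 4.53 in experiment 1 and -0.26 in experiment 2. The prolyl hydroxylase subunits P4ha1 and P4ha2 differed by 1.41 and 2.07, with 2.696 and 3.55 in experiment 1 and -0.14 and -0.63 in experiment 2. The lysyl hydroxylase Plod2 differed by 1.20. Sparc, a collagen-binding matricellular protein, was at 189 to 784 TPM (median 339) against 0 to 365 TPM (median 117), a difference of 2.12 that was 1.27 over the 12 cells. The laminin-binding integrin genes Itga3 and Itga6 differed by 1.52 and 0.64, and Itgb1 by 1.00. The 2 lower members were Plod1 (-0.77) and Dag1 (-0.41), neither with 1 sign in both experiments.

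**Figure D3:**
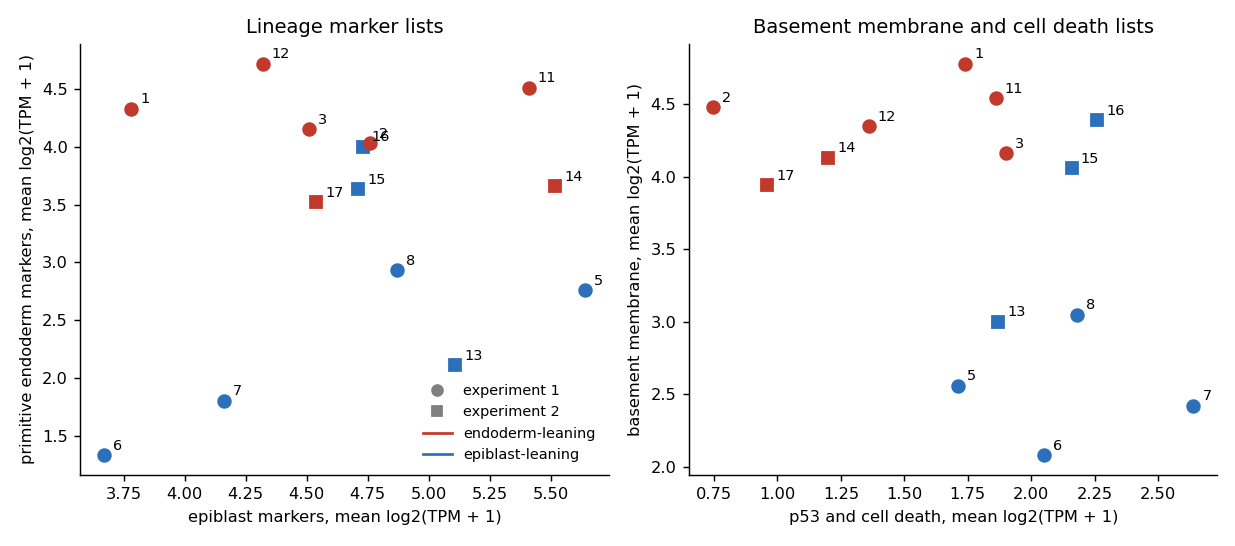
Mean log2(TPM + 1) of gene lists in each E4.0 cell, with primitive endoderm against epiblast markers on the left and basement membrane against p53 and cell death genes on the right. Points are cells, shape is the experiment and colour the group. The endoderm-leaning cells lie at 3.52 to 4.72 for primitive endoderm markers, and epiblast-leaning cells 15 and 16 lie among them, while the groups share the whole range of the epiblast markers.

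The 2 largest negative differences were those of Actn2 and Bnip3l. Actn2, which encodes the actin crosslinker α-actinin 2 and lies on chromosome 13 at 12269426 to 12340760, was at 0 to 1.02 TPM (median 0) in the endoderm-leaning cells and at 0 to 100.2 TPM (median 68.8) in the epiblast-leaning cells. A TPM of 1 or more was found in 1 of 7 endoderm-leaning cells and in 6 of 7 epiblast-leaning cells, the exception being cell 8. The difference was -4.67, with -4.20 in experiment 1, -5.36 in experiment 2 and -4.03 over the 12 cells. The 3 highest epiblast-leaning cells were 7, 6 and 15, at 100.2, 91.3 and 83.4 TPM. Bnip3l, a receptor for the removal of mitochondria by autophagy, was at 0 to 68.1 TPM (median 2.09) against 20.2 to 628 TPM (median 173), with overlapping groups and a difference of -4.41.

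Other genes lower in the endoderm-leaning cells spanned several functions. Saa3, an acute phase serum amyloid gene, was at 0 to 4.76 TPM (median 3.21) against 1.73 to 206 TPM (median 55.8), a difference of -3.88 that was alike in the experiments (-3.69 and -3.71). Bhmt, betaine-homocysteine methyltransferase of the methionine cycle, was at 0 to 166 TPM (median 6.32) against 11.0 to 834 TPM (median 168), with -4.86 in experiment 1 and -0.83 in experiment 2. Sox15, a SOX factor of pluripotent cells, was at 0 to 42.6 TPM with a median of 0, against 0.88 to 171 TPM (median 38.8), with -4.34 and -0.47 in the experiments.

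The rest of the 15 ran from -4.32 to -3.38. They included Coa7, an assembly factor of cytochrome c oxidase (-3.77), Prkag1, a subunit of the energy sensor AMPK (-3.44), Cnot11 of the CCR4-NOT deadenylase complex (-3.41) and the Golgi SNARE gene Bet1 (-3.38). Hint3, Mrnip, Mgarp, Slc10a7 and Dazap2 differed by -4.12, -4.09, -3.70, -3.54 and -3.46. Snord58b (-4.32) lies within Rpl17, and the reads of the 2 cannot be told apart. It was detected in 4 epiblast-leaning cells (6, 7, 13 and 16) and 0 endoderm-leaning cells, and passed the filter only through the former. All 15 stayed negative over the 12 cells, between -4.73 and -2.58. Within experiment 2 alone, Mgarp and Sox15 were slightly positive over these cells (0.22 and 0.063).

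Among the 12 genes whose groups did not overlap, Gins4, a subunit of the replicative helicase, was at 17.01 to 39.9 TPM (median 31.95) in the endoderm-leaning cells and at 65 to 199 TPM (median 80.9) in the epiblast-leaning cells, a difference of -1.76. Ptma, prothymosin α, an abundant transcript of proliferating cells, was at 615 to 1878 TPM against 1947 to 3713 TPM (-1.40). Rheb, the small GTPase that activates mTORC1, was at 0.16 to 15 TPM against 16.2 to 31.5 TPM (-1.72). Sms, spermine synthase, was at 0.04 to 44.2 TPM against 59.1 to 193 TPM (-2.27), and Adi1, an enzyme of methionine salvage, at 0.12 to 32.96 TPM against 35.5 to 171 TPM (-2.49). Mef2d, Hdac4, Hsdl1, Specc1l, Ddi2, Wdr36 and the predicted gene Gm11517 made up the 12, with differences from -2.73 to -1.57. Mef2d, Hdac4 and Hsdl1 reached 1 TPM in no endoderm-leaning cell. They passed the filter only through the epiblast-leaning cells, which fixed their direction.

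The p53 and cell death list had a median of -0.13 over all its 21 members, 8 of which did not pass the filter. The median of -0.18 over all genes covers only genes that passed, so these medians are not of like sets. Members detected often enough were mostly lower in the endoderm-leaning cells. Of the 21 genes, 13 passed the filter, of which 12 were lower and 1 higher, with a median of -1.62 against -0.18. The median was -1.08 in experiment 1, -1.09 in experiment 2 and -1.51 over the 12 cells, where 13 were lower. The 8 that did not pass included Trp53 and Fas. Cdkn1a and Perp reached 1 TPM in no endoderm-leaning cell and passed only through the epiblast-leaning cells, so the count over the 13 is no support for a shift of the list. Cdkn1a, the p21 cell cycle inhibitor, was at 0 to 0.86 TPM against 0 to 61.7 TPM (median 1.26), and only cells 5, 6, 7 and 16 had 1 TPM or more. Perp, a p53 target of the plasma membrane, was at 0 to 0.50 TPM against 0 to 20.5 TPM (median 5.71), and Gadd45a differed by -1.75. Cells 6 and 7 were among the 3 highest for Cdkn1a, and cell 6 was highest for both Cdkn1a and Perp.

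Epiblast markers outside the 9 genes were not shifted as a group. All 27 passed the filter, with 15 higher and 12 lower and a median of 0.08, or -0.01 in experiment 1, -0.57 in experiment 2 and -0.12 over the 12 cells. Pou5f1, which encodes OCT4, was at 55.2 to 227 TPM (median 145) in the endoderm-leaning cells and at 93.7 to 332 TPM (median 179.5) in the epiblast-leaning cells, a difference of -0.46. Esrrb, a nuclear receptor of naive pluripotency, was at 0 to 47.2 TPM (median 5.15) against 2.68 to 95.1 TPM (median 25.3), a difference of -1.97 with -2.26 and -1.15 in the experiments. Zfp42, also called REX1, was at 28.5 to 239 TPM (median 94.8) against 56.4 to 288 TPM (median 236), a difference of -1.24.

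Other naive factors differed in both directions. Tfcp2l1 differed by -1.28, Etv5 by -1.27 and Enox1 by -1.54, while Klf4 differed by -0.07, Tbx3 by 0.82 and Klf5 by 0.99. The sign of Klf5, Klf4 and Etv5 turned in experiment 2, to -0.57, -0.67 and 0.36 against 2.102, 0.60 and -2.47 in experiment 1. Among markers that were higher, Spp1 differed by 1.66, Etv4 by 1.63, Dppa5a by 1.48 and Morc1 by 1.28. Spp1 was at -0.20 in experiment 1 and 0.10 over the 12 cells. Dppa2 was at -2.64 in experiment 1 and 2.80 in experiment 2.

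Formative and primed genes, which mark the later epiblast, were higher in the endoderm-leaning cells in each case that passed the filter, 7 of 13 in the table, with a median of 1.03 (1.77 in experiment 1, 0.38 in experiment 2 and 0.84 over the 12 cells). Fgf5, Pou3f1, Lef1, Sall2, Zic2 and Fgf15 did not pass, and over the 13 genes the median was 0.38. The largest was Cldn6 (2.097), a tight junction protein of epithelia. Dnmt3l, the cofactor of the de novo DNA methyltransferases, was at 126 to 389 TPM (median 246) against 6.79 to 583 TPM (median 106), a difference of 1.70. Dnmt3b differed by 1.03 and Otx2 by 0.75, with -0.39 and -0.17 in experiment 2. Dnmt1, the maintenance methyltransferase, and its partner Uhrf1 differed by -1.50 and -1.49.

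NODAL pathway genes split by gene and by experiment. Of 18, 13 passed the filter, 7 higher and 6 lower, with a median of 0.11, and 0.42 in experiment 1 and -1.31 in experiment 2. Lefty1, a secreted inhibitor of NODAL, was at 25.5 to 203 TPM (median 98.0) in the endoderm-leaning cells and at 0 to 327 TPM (median 0.54) in the epiblast-leaning cells. Its 4 epiblast-leaning cells of experiment 1 were at 0 to 0.54 TPM, and the 3 of experiment 2 were at 73.01, 280.5 and 327 TPM. The difference was 6.20 in experiment 1 and -1.31 in experiment 2, so the pooled 2.99 rests on experiment 1. Gdf3, a NODAL-related ligand, was at 3.80 to 121 TPM (median 16.5) against 8.50 to 222 TPM (median 68.6), a difference of -1.57. Foxh1, the DNA-binding partner of SMAD2 and SMAD3, was at 5.10 to 95.2 TPM (median 27.9) against 26.0 to 153 TPM (median 60.8), a difference of -1.46. Both had the same sign in the experiments. Nodal itself differed by 0.39, Smad3 by -1.77 and the convertases Furin and Pcsk6 by 0.17 and 0.78.

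In FGF signalling, Fgfr2 was the receptor that differed most. It was at 0.13 to 41.9 TPM (median 16.4) in the endoderm-leaning cells and at 0 to 3.26 TPM (median 0.63) in the epiblast-leaning cells, where 2 of 7 cells had 1 TPM or more against 6 of 7. The difference was 2.95, with 2.63 in experiment 1, 4.09 in experiment 2 and 2.78 over the 12 cells. The groups overlapped through endoderm-leaning cell 2, at 0.13 TPM. Fgfr1, which both lineages express, was at 0.05 to 38.7 TPM (median 3.73) against 3.69 to 29.01 TPM (median 7.29), a difference of -1.28. The ligand gene Fgf3 differed by 1.97.

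Below the receptors, the adaptor Grb2 was at 0.22 to 25.1 TPM (median 3.79) against 9.65 to 113 TPM (median 24.0), a difference of -2.25, and the exchange factor Sos1 differed by -1.85. Of the 10 genes that passed, 4 were higher and 6 lower, with a median of -0.25. Targets of ERK showed no common direction, with 8 higher and 7 lower of 15 and a median of 0.12. Spry4, a feedback inhibitor, differed by 1.01. It reached 1 TPM in 4 endoderm-leaning and 0 epiblast-leaning cells and passed the filter only through the former. Dusp4 differed by 0.99 with 3.04 in experiment 1 and -2.04 in experiment 2. Spry2 differed by -0.88, with 0.33 in experiment 1 and -2.39 in experiment 2.

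Genes of the LIF and STAT3 pathway, which sustains naive pluripotency, were lower in 5 of 7 cases, with a median of -0.34 and -0.69 over the 12 cells, led by the kinase gene Pim3 (-2.06). In the BMP pathway 5 of 14 genes passed, 3 higher and 2 lower. In the WNT pathway 9 of 17 passed, 6 higher and 3 lower with a median of 0.61, and Dkk1, a secreted WNT antagonist, differed by 2.76 (4.59 in experiment 1 and 0.36 in experiment 2). Among growth factor receptor and PI3K genes, Mtor differed by 2.06, Tsc2 by 2.22 (3.84 in experiment 1 and -1.11 in experiment 2) and Foxo3 and Tsc1 by -2.25 and -2.18, with a list median of -0.47.

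Endocytosis and lysosomal genes had 10 of 16 members higher and a median of 0.41. Ctsl, the lysosomal protease cathepsin L, was at 155 to 2788 TPM (median 451) in the endoderm-leaning cells and at 4.73 to 504 TPM (median 65.7) in the epiblast-leaning cells, a difference of 3.13 with 2.28 and 3.97 in the experiments. Lrpap1, the chaperone of LDL receptor family members, differed by 1.55. In the endoplasmic reticulum, Kdelr3, a retrieval receptor, differed by 2.94 (5.22 in experiment 1 and -1.28 in experiment 2), and the list of 21 genes had a median of 0.33. Lipoprotein genes that passed were few, 5 of 13, with Apoc1, Apoc2 and Apom at -1.44, -1.54 and -1.10 and Apoe at 0.97 (1.66 in experiment 1 and -0.68 in experiment 2).

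In glycolysis, 11 of 19 genes were higher and 8 lower, with a median of 0.23. Pgk1, phosphoglycerate kinase, was at 43.2 to 249 TPM (median 175) against 0 to 354 TPM (median 18.8), with cells 6, 15 and 16 below 0.5 TPM. Its difference was 3.23, and 1.78 over the 12 cells. Pfkp, the platelet-type phosphofructokinase, differed by 3.05 and Tpi1 by -2.18. Oxidative phosphorylation genes, all 34 of which passed, had 21 higher and a median of 0.18. Cholesterol synthesis genes had 13 of 23 higher, with a median of 0.36, and Ebp, the sterol isomerase, differed by 2.37.

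Cell cycle lists were near the value of all genes. S phase genes had 6 of 17 higher and a median of -0.37, and mitosis genes 8 of 22 higher and a median of -0.30. Top2a, topoisomerase IIα of dividing cells, was at 38.6 to 190.3 TPM (median 89.6) against 0 to 131 TPM (median 5.78), a difference of 3.12 that was not shared by the list.

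**Figure D4:**
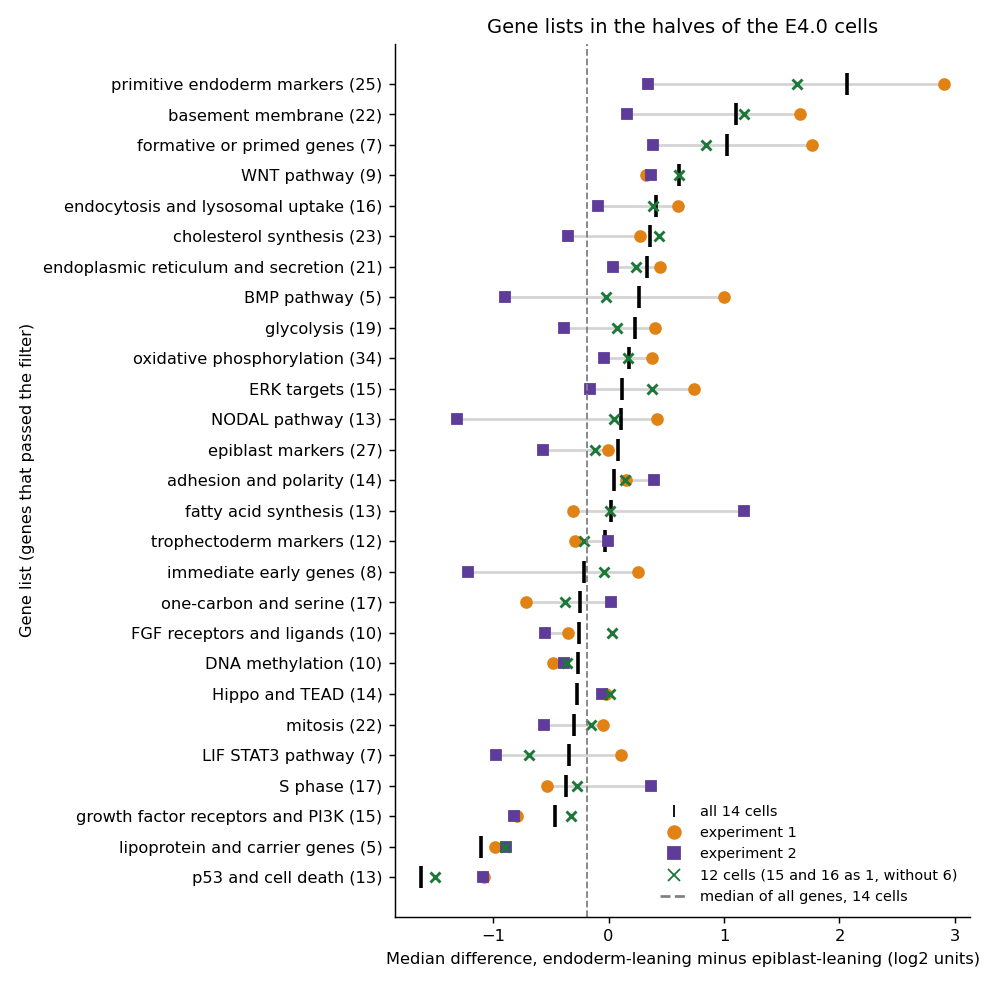
Median difference between endoderm-leaning and epiblast-leaning cells (log2 units) for each of the 27 gene lists, with the number of genes that passed the filter in brackets. Bars mark all 14 cells, circles experiment 1, squares experiment 2 and crosses the 12 cells; the dashed line is the median of all genes. The primitive endoderm list is highest at 2.07, with 2.91 in experiment 1 and 0.34 in experiment 2. The p53 and cell death list is lowest at -1.62. Over all their members, including genes that did not pass the filter, the medians of these lists are 1.06 and -0.13. The dashed line covers only genes that passed.

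Trophectoderm, the outer layer removed by immunosurgery, is the other cell type such a collection could hold. Of 23 trophectoderm markers, the endoderm-leaning cells had 6 to 10 at 1 TPM or more and the epiblast-leaning cells 6 to 13, and mean log2(TPM + 1) over the list was 1.43 to 1.93 against 1.20 to 2.63. The highest list mean was that of cell 7 (2.63). Elf5 and Esx1 were at 0 in all 14 cells, and Tfap2a and Id2 were below 1 TPM in all. Cdx2 reached 1 TPM in 1 endoderm-leaning cell and no epiblast-leaning cell. Krt18, Wnt7b and Tfap2c each reached 1 TPM in 1 endoderm-leaning cell, and in 5, 4 and 3 epiblast-leaning cells. Gata3 did so in 0 against 2 cells and Hand1 in 0 against 1, at 22.9 TPM. Others went the other way, such as Eomes (5 against 4 cells), Krt19 (2 against 1) and Lrp2 (2 against 0). Lrp2 is also on the primitive endoderm list. Lgals3, Tead4, Fabp3 and Slc2a3 were found in 7 against 6 cells. Of 12 markers that passed the filter, 6 were higher and 6 lower, with a median of -0.03. Krt8, a keratin of simple epithelia, was at 0 to 16.6 TPM (median 6.25) against 0 to 219 TPM (median 72.6), with cell 7 highest. Its difference was -2.20, and -1.50 over the 12 cells. Fabp3, a fatty acid binding protein, differed by 2.45, with 3.09 in experiment 1 and 0.08 in experiment 2.

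To ask whether the same 9-gene value sorts other cells in the same way, it was applied within each of the 5 experiments of E3.75 (2 experiments) and DMSO 24h (3 experiments), whose cells had no part in the E4.0 groups. A near-identical pair of libraries (0.956) joined DMSO 24h experiments 1 and 2, so these blocks were not fully independent. The means of the upper and lower cells were compared per gene with limma, with the experiment as a block, and p-values were Benjamini-Hochberg adjusted over all 8664 genes tested. No gene passed an adjusted p of 0.05 in either direction (0% higher and 0% lower), and the smallest adjusted p was 0.947. At an unadjusted p under 0.05 there were 75 genes higher (0.866%) and 333 lower (3.84%). Genes detected per cell were fewer in the upper cells of the DMSO 24h experiments (means of 5340 to 6205 against 6112 to 7347), and not so in E3.75 (6446 and 6518 against 6398 and 5508). With the number of genes detected as a covariate there were 295 higher and 305 lower at an unadjusted p under 0.05, and 0 past the adjusted threshold. Without the near-identical libraries there were 104 higher and 354 lower at that unadjusted level, and 0 past the adjusted threshold.

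Of the 201 genes named for the E4.0 cells by their size or list, 159 could be tested in these 5 experiments. The other 42 were too rarely detected there, among them Htra1, Srgn and Amn. None passed the adjusted threshold. By limma 8 of the 159 had an unadjusted p under 0.05, 1 higher and 7 lower. Over all 8664 genes tested there were 408 (0.866% higher and 3.84% lower). The share among the named genes was near that of all genes, so nothing about the named genes is read from this count. The largest of the 8 in size was Foxh1, with a difference of -1.95 ± 0.56 by limma (SE, unadjusted p = 0.00457, adjusted p = 0.947). Its mean was lower in the upper cells of 5 of 5 experiments, and its difference in the E4.0 cells was -1.46. Fos, F11r, Gadd45a, Myc, Utf1 and Id3 were the other 6 lower genes, with differences from -1.45 to -1.005. In the E4.0 cells Fos (-0.38), F11r (-2.11) and Gadd45a (-1.75) were also lower, while Myc (0.60), Utf1 (0.09) and Id3 (0.54) were higher. Cubn was the 1 higher, at 0.88 ± 0.39 (SE, unadjusted p = 0.0432, adjusted p = 0.947 by limma), positive in 4 of 5 experiments and 0 in the other.

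Of the 15 genes highest in endoderm-leaning E4.0 cells, 7 could be tested, with differences from -1.07 to 0.62, and 4 were positive. Of the 15 lowest, 14 could be tested, from -0.90 to 0.80, and 8 were negative. Lama1 was at -0.68 ± 0.49 (SE) and Sparc at -1.09 ± 0.53, both opposite in sign to the E4.0 cells, and Aqp8 at 0.93 ± 0.57, with adjusted p = 0.947 for all 3 by limma. Actn2 was at 0.0024 ± 0.52 and Bnip3l at -0.85 ± 0.57. Primitive endoderm markers were higher for 7 and lower for 9 of 16 tested, with a median of -0.06, and basement membrane genes were higher for 6 and lower for 14 of 20, with a median of -0.13, against -0.11 over all genes. Epiblast markers were lower for 20 of 21 tested, with a median of -0.55, while 5124 of all 8664 genes were lower. In limma 1 of the 21 had an unadjusted p under 0.05, and none passed the adjusted threshold. The cells were divided in part by 4 epiblast genes, so this count is a description and was not tested. Pou5f1 was at -0.55 ± 0.37 and Esrrb at -0.77 ± 0.52. The smallest p in these experiments belonged to Mtrf1l, a mitochondrial release factor (1.69 ± 0.38), among higher genes, and to the predicted gene Gm42429 (-1.53 ± 0.36) and then Fdx2, a mitochondrial ferredoxin (-2.37 ± 0.58), among lower genes, at adjusted p = 0.947 each by limma. Of 20 such genes, 19 were measured in the E4.0 cells, and 9 had the same sign there.

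**Figure D5:**
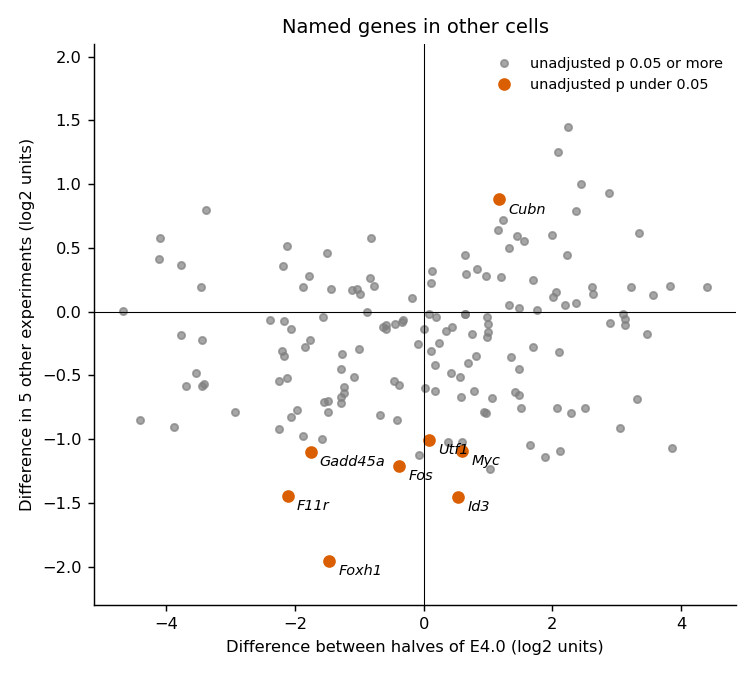
Difference between upper and lower cells in 5 other experiments against the difference between the groups of the E4.0 cells, both in log2 units, for the named genes that could be tested. Each point is a gene, coloured where its unadjusted p in the other experiments was under 0.05. The points spread to both sides of 0 vertically at all E4.0 differences, and Foxh1 at -1.95 is the lowest of the coloured points.

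The genes named for the E4.0 cells were also followed across the labelled treatments, with limma on the means of 18 experiments and 11692 genes. Between LY and DMSO no gene passed an adjusted p of 0.05 at 24 hours or at 16 hours (0% and 0%), while 5.25% and 5.5% of genes had an unadjusted p under 0.05. Without the near-identical libraries, too, no gene passed at either time. Between DMSO 24h and DMSO 16h, 1 gene passed (0.00855%), Prl3b1, with -1.35 and an adjusted p of 0.0045, and 10.8% had an unadjusted p under 0.05. The call of Prl3b1 was lost, with 0 genes lower, when only these 2 groups were fitted and without DMSO 24h experiment 1 or 2. None of the 201 named genes passed in any of the 3 comparisons, which share DMSO experiments. At an unadjusted p under 0.05 there were 14 named genes for LY at 24 hours, 16 at 16 hours and 16 between the DMSO times. Actn2 was at -2.14 ± 0.87 (SE) for LY against DMSO at 16 hours (unadjusted p = 0.0218, adjusted p = 0.853).

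The leading genes were also followed over the groups of the series. Htra1 had a TPM of 1 or more in 85.7% of E4.0 cells, 4.55% of E3.75 cells and 10.0% of E3.25 cells. In culture it did so in 38.7% of DMSO 16h cells, 3.57% of DMSO 24h cells, 32.3% of LY 16h cells and 4.17% of LY 24h cells. Srgn was found in 85.7% of E4.0 cells, 13.6% of E3.75 cells and 10.0% of E3.25 cells. In culture it was found in 16.1% of DMSO 16h cells, 3.57% of DMSO 24h cells, 3.23% of LY 16h cells and 0.0% of LY 24h cells. Amn was found in 85.7% of E4.0 cells and in 19.4% to 22.7% of E3.75 and DMSO cells. These genes were thus detected in most E4.0 cells of both groups, the epiblast-leaning cells without them being cells 6 and 7.

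For genes lower in the endoderm-leaning cells, levels elsewhere differed by gene. Actn2 had a TPM of 1 or more in 50% of E4.0 cells, 40.9% of E3.75 cells, 78.6% of DMSO 24h cells and 96.8% of DMSO 16h cells. Its mean log2(TPM + 1) over experiments was 5.71 ± 0.14 (SD, n = 3) at DMSO 16h and 2.64 ± 0.81 (n = 2) at E4.0. Bnip3l was at 7.31 at E3.25, 5.05 ± 1.6 (n = 2) at E3.75, 7.30 ± 0.58 (n = 3) at DMSO 16h and 4.65 ± 0.73 (n = 2) at E4.0. In the fresh stages Bhmt had a mean of 9.62 at E3.25, 8.79 ± 0.69 in E3.75 cells and 5.64 ± 1.98 in E4.0 cells (n = 2 experiments each). Lefty1 was found in 71.4% of E4.0 cells, 36.4% of E3.75 cells and 10.0% of E3.25 cells, and in at most 6.45% of cells of any culture group. Gata6 was at 3.82 ± 0.67 at E4.0 and between 3.49 and 4.19 in the other groups.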

How the data were processed

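Single cells of mouse embryos were sequenced after reverse transcription from the 3′ end, amplification and Nextera XT library preparation, per the labels' protocols. The authors deposited 1 table of TPM values whose 170 columns were assigned to samples through the titles, and labelled samples without a column were not analysed here. The submitters' processing notes name STAR 2.7.9a, RSEM 1.3.3, cutadapt 2.9, bcl2fastq 2.20.0 and the build mm10. Their settings and annotation are not given in the sources used here. Read depth per cell is unknown, because TPM does not retain it, and the precision of a single value cannot be stated. TPM is scaled by transcript length although the reads come from 3′-primed cDNA, so a gene was compared between cells and never with another gene. Coordinates are those of GENCODE vM21 (mm10), matched by symbol. Whether counting used strand is not given, so overlapping genes are uncertain.

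Of 55513 lines, 92 spike-in lines were left out. All cells were kept, and doublets were not called because cells were picked singly. The members and gene lists were chosen with earlier results of these data known. The genes named were the 15 of largest difference in each direction with 1 sign in both experiments (without predicted, ribosomal protein and mitochondrially encoded genes), members of 27 lists that passed the filter, and the 10 of smallest p in each direction in the other experiments. A few list members are counted but not reported here by name.

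The 5 other experiments were compared with limma 3.58.1 in R 4.3.3 (Python 3.11.15 elsewhere), with means of log2(TPM + 1) per experiment and group of cells, the experiment as a block, and genes with TPM 1 or above in 25% of these cells. The median cell of an experiment with an odd number of cells was in neither group. The labelled treatments were compared with limma on 18 experiment means, with genes that reached 25% of cells in at least 1 group. In that fit a pair of E3.25 columns whose titles differ by a suffix was averaged as 1 cell. P-values were Benjamini-Hochberg adjusted over all genes, with a threshold of 0.05. Experiments are collection days, so p-values measure the spread between days. The limma fit was tested on simulated data. LY and DMSO experiments share date labels, which pair them. As a check, deviations of same-date experiments from their group means correlated across genes at 0.393, 0.122 and 0.317 at 16 hours and at 0.231, 0.12 and 0.0732 at 24 hours. Alternatives were the pseudocount, the filter, normalization, each part of the 9-gene value, title parts, sequencing runs, the near-identical libraries, the block and each experiment left out.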

Additional observations from a re-analysis of the deposited data

Results flagged for a closer look

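In 8 of 98 sets of values examined, 1 value was flagged by its gap to the nearest value over the whole range. Most sets were the 7 cells of a group for 1 gene or library measure. The rest were the differences of a gene in the 5 other experiments. All 8 flagged sets were of cells. Chance flags about 1 in 20 such sets, but that rate was not tested for sets in which the other cells are all at 0. The flagged values are in log2(TPM + 1). Among endoderm-leaning cells, Oat was at 0.911 in cell 2, against 4.64 to 7.18 in the others, and Dab2 was at 0.0976 in cell 14, against 4.93 to 6.92. Cell 11 had the 1 value of Actn2 above 0 (1.01) and the 1 value of Cdkn1a above 0 (0.895). Perp was at 0.585 in cell 17 and at 0 in the others. Actn2, Cdkn1a and Perp were flagged because the other cells were all at 0, and their flagged values were themselves low. Among epiblast-leaning cells, Sparc was at 0.0 in cell 6, against 6.43 to 8.51. Oat was at 2.78 in cell 13, against at most 0.642, and Gata6 at 0.411 in cell 8, against 3.42 to 5.41.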

How the results depend on the processing

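The number of genes whose E4.0 groups did not overlap (8 higher, 12 lower) depended on the cells. It was 0 and 0 with groups set by the 5 endoderm genes alone, 2 and 1 with the 4 epiblast genes alone, 13 higher without cell 6, and 16 and 19 over the 12 cells. With 1 experiment left out it was 122 to 939 higher and 137 to 1340 lower, as fewer cells overlap less. None of the 30 genes of largest difference changed sign under the alternatives counted. These did not include groups set by the endoderm or epiblast genes alone. The 30 were chosen for the same sign in both experiments, so leaving out either experiment could not turn any of them. Of the 201 named genes, 40 changed sign without experiment 1 and 21 without experiment 2.

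In the 5 other experiments no alternative gave an adjusted call, and with no replicate block there were 0 higher and 0 lower. With the 5 endoderm genes alone the difference turned for Pip4p2 (-0.44), Atox1 (-0.12), Ankrd46 (-0.37), Selenok (0.38), mt-Ta (0.97), Utf1 (1.298), Id3 (0.38) and Myc (0.31). It turned for Aqp11 (-0.33) and Rab24 (-0.0083) over 16 experiments, for 2210418O10Rik (-0.23) with the epiblast genes alone and for Gadd45a (0.040) within title parts. The cause was not tested.

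LY against DMSO at 16 hours gave 0 to 1 genes higher and 0 to 2 lower with 1 experiment left out, and 1 lower with no filter. DMSO 24h against 16h gave 1 higher and 2 lower with no filter, 2 lower with a pseudocount of 0.1, 0 lower with only these groups fitted, and 0 to 8 lower with 1 experiment left out. With the date as a replicate block LY against DMSO gave 0 higher and 0 lower at both times, and 1332 genes at 24 hours and 1412 at 16 hours had an unadjusted p under 0.05, against 614 and 643 without it.

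Depth is unknown for every cell, 5 of the 14 cells carry experiment 2, and cells 15 and 16 are 2 of its 3 epiblast-leaning cells. The grouping in experiment 1 cannot be told apart from a title part. A gene at 0 TPM is listed at 0 and may still be transcribed.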
